A study of Caenorhabditis elegans with 15 samples.

Results

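The comparison described here sets early embryos of Caenorhabditis elegans with a catalytically deficient MET-2 against wild-type embryos at 20 °C, over all genes. It was defined by the labels alone and holds 6 of the 15 libraries of the series, 3 per group. The series also holds N2 and met-2 deletion embryos heated to 37 °C for 1 h. These were not compared here, but they entered the fitted model and the rules for genes that set WT apart. The mutant group, met-2-CD, carries the allele met-2(gw1660) III, which the study describes as a point mutant of the enzyme's catalytic SET domain and which was made by CRISPR editing. The wild-type group, WT, is the laboratory strain N2 (Bristol). The deletion strain met-2(n4256) III at 20 °C (met-2Δ, 3 libraries) was compared only to show where met-2-CD differs from it. Embryos of all 3 groups were collected before the bean stage from synchronised cultures, and the labels call the replicates of a group independent and give growth times that depended on the strain. Embryo age and genotype therefore cannot be told apart, and in RNA from whole embryos fewer cells of a type and less RNA per cell cannot be told apart either.

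MET-2 belongs to the SETDB1 family of enzymes that methylate histone H3 on lysine 9 (H3K9), a mark of silent heterochromatin. In worm embryos MET-2 deposits the lower methylation states, a second enzyme, SET-25, adds the last methyl group, and reader proteins such as HPL-1, HPL-2 and CEC-4 bind the methylated tail. The mark covers repeats and many genes that embryos keep silent until a tissue differentiates. A catalytically deficient protein allows the loss of the mark to be separated from the loss of the protein, and the question here was which transcripts differ from WT when the enzyme is present but deficient.

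The met-2-CD libraries held 38.14 to 48.56 M counts and the WT libraries 45.83 to 58.84 M. Expression is given as CPM, the count scaled to a common library total by TMM factors, and 15471 of 20392 genes had enough counts to test. Differences are log2 fold changes (log2FC, met-2-CD minus WT) with their standard errors from the quasi-likelihood test of edgeR, and a gene was called at an FDR below 0.01 with a fold change above 2. Transcript of met-2 itself was at 309, 294 and 281 CPM in met-2-CD libraries a, b and c and at 306, 318 and 314 CPM in WT, and the point mutation cannot be seen in counts per gene. The embryo label was checked with markers: the early zygotic list summed to between 1470 and 2770 CPM in each of the 6 libraries, and the vitellogenins, yolk genes of the adult intestine, to between 0.769 and 2.31 CPM. The 3 WT libraries stand apart from the other 12 libraries of the series. Those 12 are met-2-CD and met-2Δ at 20 °C, and N2 and met-2Δ after 1 h at 37 °C, so heated embryos of the WT strain are among them. In all, 28 genes, 7 of them core histone genes and 6 pseudogenes, had at most 3 counts in each WT library and at least 20 in each other library, or the reverse. By a looser rule chosen after seeing the data, 224 genes differed more than 4-fold between every WT library and every other library (log2 of CPM + 0.1, the 28 included), and counts without them are given below.

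Many more genes were higher than lower in met-2-CD. Of the genes tested, 2466 (15.9%) had higher and 1213 (7.84%) lower levels than WT, and the median log2FC of all genes was 0.04. Without the 224 genes that set WT apart, 2300 were higher and 1155 lower. The replicates of the groups did not overlap for 2409 (97.7%) of the higher genes and 1211 (99.8%) of the lower genes. Of all genes tested 32.3% and 30.9% did not overlap in these directions. The calls rest on the same libraries and mostly bring the lack of overlap with them, so these shares are a description.

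The higher genes had lower WT levels than the genes tested as a whole. Their median level was 0.585 CPM in WT and 2.66 CPM in met-2-CD, and 81.1% of them had less than 4 CPM in WT, compared with 46% of all genes tested. Among genes under 0.5 CPM in WT, 28.2% were called higher, whereas of the 3086 genes between 64 and 256 CPM 1.52% were. Between 9.27% and 11.1% of genes were called lower in the classes from 0.5 CPM upwards, and 1.42% under 0.5 CPM. The lower genes' median level was 27.1 CPM in WT and 10 CPM in met-2-CD. These values are a description, since the classes use the WT values that are also 1 side of the fold change, and a gene near 0 in WT passes the filter on low counts only through groups where it is higher and has little room to be called lower.

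**Figure D1:**
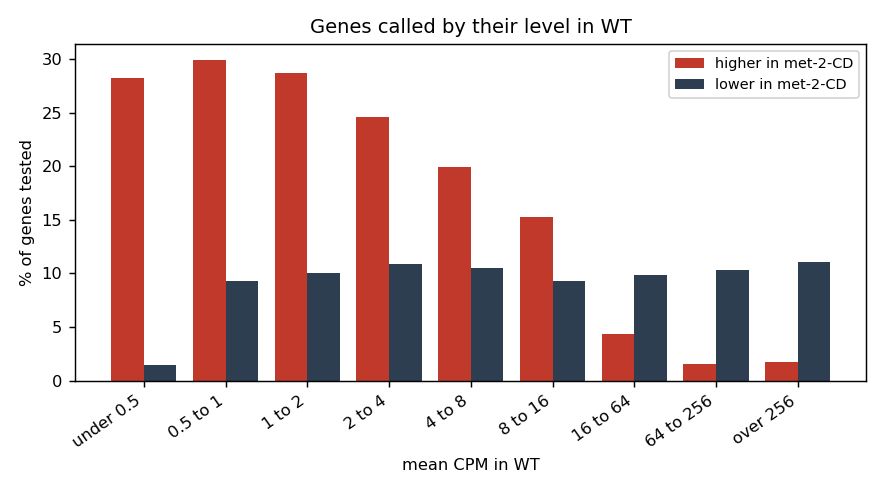
Share of tested genes called higher (red) or lower (dark) in met-2-CD, in 9 classes of mean CPM in WT. The share of higher genes fell from 28.2% under 0.5 CPM to 1.75% over 256 CPM, while the share of lower genes was 1.42% in the lowest class and between 9.27% and 11.1% in the others, but the classes share the WT values with the fold change.

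Named genes among the largest rises fell into kinds with very different replicate behaviour. The clearest was twk-49, a gene of the TWK family of potassium channels, at 62.6, 59.5 and 64.6 CPM in met-2-CD libraries a, b and c. It had 0.884, 0.955 and 0.641 CPM in WT. The 3 mutant libraries lay close together and far above all WT libraries (log2FC 6.22 ± 0.11, edgeR FDR 2.51e-15). F23A7.8 had 220, 198 and 201 CPM in the met-2-CD libraries and 1.51, 0.334 and 0.715 CPM in WT (log2FC 7.85 ± 0.30, edgeR FDR 1.92e-11). mec-17, an alpha-tubulin acetyltransferase of touch receptor neurons, had 9.28, 9.98 and 10.6 CPM in met-2-CD. Its WT libraries had 0.546, 0.74 and 0.493 CPM (log2FC 4.07 ± 0.16, edgeR FDR 1.93e-11). pho-1, an acid phosphatase of the intestine, had 5.8, 6.05 and 5.8 CPM against 0.339, 0.454 and 0.321 CPM (log2FC 3.98 ± 0.21, edgeR FDR 6.04e-10). For these 4 genes the lowest met-2-CD library was many times the highest WT library. All 4 belong to the 224 genes that set WT apart, as do wrt-1, asp-1, col-165, cut-3, F41F3.3, myo-1, col-43, spp-13, irk-2, hsp-12.2, sago-2, glf-1, nep-17, his-64, cst-2, ctl-1, cin-4, W09H1.4, K08E5.1, Y108F1.5, plp-2 and ZC123.1 below.

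Other rises were as large but uneven. wrt-1, a hedgehog-related gene, had 12.5, 25.1 and 67.8 CPM in met-2-CD libraries a, b and c and 0.847, 1.34 and 0.0493 CPM in WT. The groups did not overlap (log2FC 5.54 ± 0.60, edgeR FDR 1.21e-06), yet library c held more than the other mutant libraries together. asp-1, an aspartyl protease of the intestine, had 5.47, 9.81 and 29.9 CPM in the met-2-CD libraries and 0.245, 0.597 and 0.321 CPM in WT (log2FC 5.32 ± 0.62, edgeR FDR 2.35e-06). The collagen gene col-165 had 5.82, 12.9 and 36.3 CPM against 0.0753, 0.477 and 0.0493 CPM (log2FC 6.56 ± 0.75, edgeR FDR 1.88e-06). The cuticlin gene cut-3 had 6.13, 12.2 and 32.2 CPM against 0.32, 0.263 and 0.222 CPM (log2FC 5.94 ± 0.60, edgeR FDR 5.84e-07). In each of these 4 genes library a was lowest and library c highest. By SD of log2(CPM + 0.5) among met-2-CD replicates, the 5 most variable genes with at least 5 CPM were C02E7.6, col-165, F41F3.3, wrt-1 and asp-1.

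**Figure D2:**
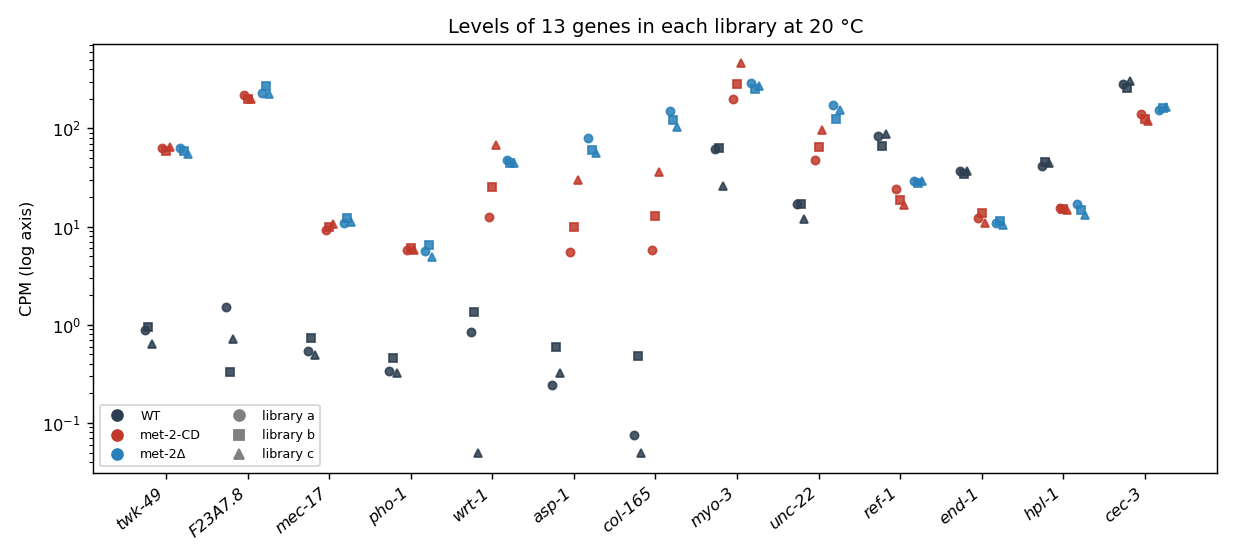
CPM of 13 genes in each library at 20 °C on a log axis, for WT (dark), met-2-CD (red) and met-2Δ (blue), with circles, squares and triangles for libraries a, b and c. The met-2-CD points of twk-49, F23A7.8, mec-17 and pho-1 almost coincide, those of wrt-1, asp-1 and col-165 are spread with library c highest, and those of ref-1, end-1, hpl-1 and cec-3 lie below all WT points.

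The unevenness lay in the higher genes. The median SD of log2(CPM + 0.5) among met-2-CD replicates was 0.40 for the higher genes, 0.12 for the lower genes and 0.11 for the genes not called, against 0.20, 0.13 and 0.11 among WT. For the higher genes the values of met-2-CD and WT are not on equal terms. The added 0.5 is close to their median WT level of 0.585 CPM. It shrinks the spread there more than at their median of 2.66 CPM in met-2-CD. Among met-2Δ replicates the higher genes had a median SD of 0.15. Over all genes the biological coefficient of variation was 19.2% among met-2-CD replicates, 14% among WT and 7.25% among met-2Δ. Of the genes higher in met-2-CD, library c was the highest mutant library for 2032 and library a the lowest for 1884. Over all genes tested, library a had 630 genes more than 2-fold above the highest WT library, library b 1012 and library c 1880. Downward the mutant libraries were closer, with 609, 787 and 835 genes more than 2-fold below the lowest WT library. Leaving out library c gave 1855 higher genes, of which 1842 were among the 2466, and leaving out library a gave 2655. The WT libraries were not even either: for 64.9% of the higher genes WT library c was the lowest WT library, and without it 2077 genes were higher.

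Sorted by their range among the met-2-CD libraries, 751 of the higher genes were even (a log2 range below 0.5), 820 were uneven (above 1) and 895 lay between. This sorting uses the met-2-CD values themselves and is a description. The median CPM of the even genes was 1.66, 1.68 and 1.8 in met-2-CD libraries a, b and c, 0.414, 0.406 and 0.395 in WT, and 1.75, 1.7 and 1.69 in met-2Δ. The median of the uneven genes was 2.02, 3.2 and 5.9 CPM in the met-2-CD libraries, 0.79, 0.883 and 0.419 CPM in WT, and 5.34, 4.73 and 4.56 CPM in met-2Δ. For the uneven genes the spread among replicates was thus wide in met-2-CD and narrow in met-2Δ. Library c was the highest mutant library for 815 of the 820 uneven genes, and WT library c the lowest WT library for 80.9% of them, compared with 41% of the even genes. Of the uneven genes 24.9% lie on the X chromosome, and of the even genes 12.6%, whereas 14.1% of the tested genes with a known position do.

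**Figure D3:**
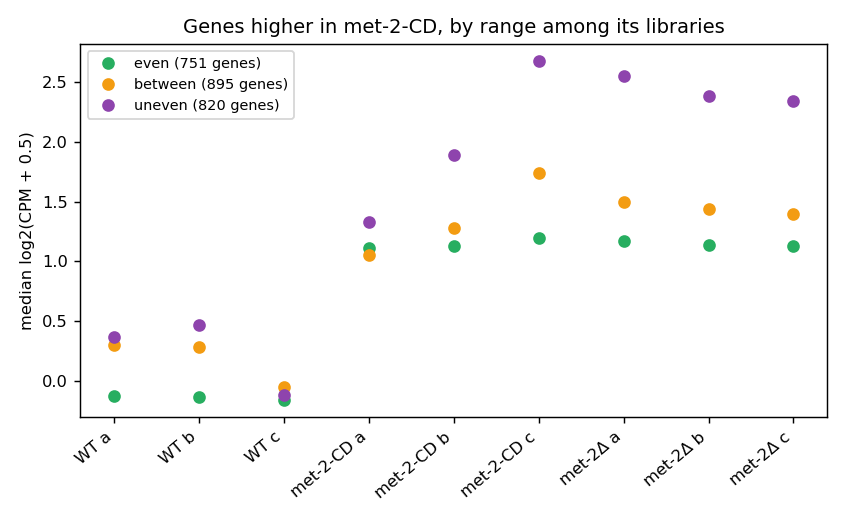
Median log2(CPM + 0.5) of the genes higher in met-2-CD in each library at 20 °C, for even genes (green, 751), those between (orange, 895) and uneven genes (purple, 820). The even genes sit at 1.11 to 1.2 in the met-2-CD libraries, while the uneven genes sit at 1.33, 1.89 and 2.68 in libraries a, b and c.

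Many genes of differentiated tissues were among the rises. Of 34 muscle genes tested, 21 (61.8%) were higher and 1 (2.94%) lower, against 15.9% and 7.84% of all genes. Their median log2FC was 1.25. myo-3, the body wall muscle myosin heavy chain, had 199, 283 and 458 CPM in the met-2-CD libraries and 62.2, 63.8 and 25.6 CPM in WT (log2FC 2.63 ± 0.30, edgeR FDR 2.24e-06). unc-22, the giant muscle protein twitchin, had 48, 64.2 and 96.3 CPM against 16.8, 16.8 and 12 CPM (log2FC 2.19 ± 0.24, edgeR FDR 1.33e-06). For both genes met-2-CD library c was highest and WT library c lowest, without overlap. The exception was the actin gene act-4, at 360, 282 and 383 CPM in the met-2-CD libraries and 913, 803 and 681 CPM in WT (log2FC −1.23 ± 0.12, edgeR FDR 2.61e-07). Without met-2-CD library c, 15 muscle genes were higher.

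Of 23 intestine genes 11 (47.8%) were higher and 2 (8.7%) lower, with a median of 0.69. Of 34 neuron genes 11 (32.4%) were higher and 2 (5.88%) lower, with a median of 0.48. Over all genes 15.9% were higher and 7.84% lower. The lower intestine genes, end-1 and end-3, encode GATA factors that specify the endoderm early, whereas the higher ones included the peptide transporter pept-1 and the intermediate filament gene ifb-2. Among the neuron genes mec-12, an alpha-tubulin of touch receptor neurons, rose by 2.48 ± 0.29 (edgeR FDR 2.47e-06). snb-1, the synaptobrevin gene, fell from between 208 and 259 CPM in WT to between 80.8 and 97.4 CPM. In the epidermis list 5 of 19 (26.3%, against 15.9% of all genes) were higher and 1 lower, and 3 were higher without met-2-CD library c. noah-2, a component of the embryonic extracellular matrix, had 972, 1110 and 1260 CPM in the met-2-CD libraries and 464, 434 and 300 CPM in WT (log2FC 1.48 ± 0.13, edgeR FDR 1.73e-07). In the pharynx list 4 of 15 (26.7%, against 15.9% of all genes) were higher and 0 lower. Among the higher genes were the pharyngeal myosin genes myo-1 and myo-2.

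The marker lists also separated the replicates. In met-2-CD the median difference of library c minus library a was 0.90 on the log2 scale for muscle, 0.39 for intestine, 0.52 for neuron, 0.26 for epidermis and 0.60 for pharynx. It was −0.36 for germline and maternal regulators and −0.29 for P granule genes, whose members are loaded into the egg. In WT the median difference of library c minus library a was −0.54 for muscle, −0.17 for intestine, −0.09 for neuron, −0.34 for epidermis, 0.26 for maternal regulators and 0.32 for P granule genes, with the pharynx list near 0. The letters name libraries within a group and do not pair them across groups. Summed levels of the muscle list ran from 3370 to 4960 CPM in the met-2-CD libraries and from 2540 to 3280 CPM in WT, and no member of it was at 0. The part of these marker differences in the comparison was not tested.

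**Figure D4:**
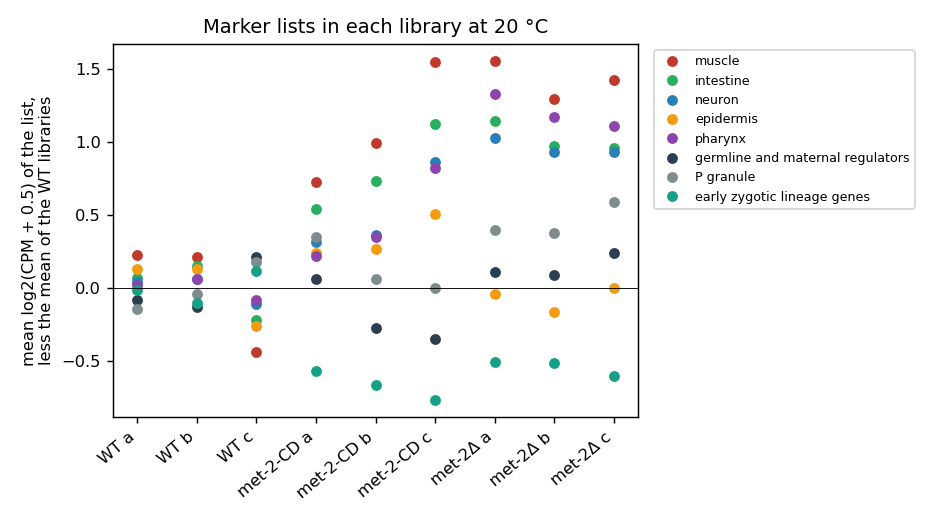
Mean log2(CPM + 0.5) of 8 marker lists in each library at 20 °C, relative to the mean of the WT libraries. Muscle, intestine, neuron, epidermis and pharynx lists are highest among the met-2-CD libraries in library c, the germline and P granule lists are lowest there, and the early zygotic list lies below WT in all 6 mutant libraries.

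Some families of cuticle and secreted proteins had many members among the rises. Of 137 collagen genes tested, out of 177 in the table, 55 (40.1%) were higher, 0 lower and 82 not called. Their median log2FC was 1.33, or 0.89 when genes at the floor of 3 counts were set at the bound it allows. Of 74 hedgehog-related and patched-related genes 33 (44.6%) were higher, 3 (4.05%) lower and 38 not called (median 1.35, or 1.00 at the bound). Of 47 lysozyme and antimicrobial genes 17 (36.2%) were higher, 0 lower and 30 not called (1.09, or 0.60 at the bound). Over all genes 15.9% were higher and 7.84% lower, and the median at the bound was 0.01. col-43 had 5.91, 6.22 and 9.86 CPM in the met-2-CD libraries and 0.339, 0.549 and 0.321 CPM in WT (log2FC 4.19 ± 0.25, edgeR FDR 1.5e-09). spp-13, a saposin-like antimicrobial gene, had 4.28, 6.11 and 14 CPM against 0.903, 0.788 and 0.271 CPM (log2FC 3.61 ± 0.41, edgeR FDR 1.89e-06). Of 138 potassium and ligand-gated channel genes 39 (28.3%) were higher and 4 (2.9%) lower. The inward rectifier gene irk-2 had 10.7, 8.5 and 11.3 CPM in the met-2-CD libraries and 0.847, 0.836 and 1.09 CPM in WT (log2FC 3.46 ± 0.16, edgeR FDR 1.5e-10). Of 114 C-type lectin genes 30 (26.3%) were higher and 2 (1.75%) lower. Of 26 astacins, a family of secreted metalloproteases, only 1 (3.85%) was higher and 0 were lower, with a median of −0.14. Of 100 neuropeptide and insulin genes 20 (20%) were higher and 12 (12%) lower, against 15.9% and 7.84% of all genes. Without met-2-CD library c, 15 of these genes were higher.

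**Figure D5:**
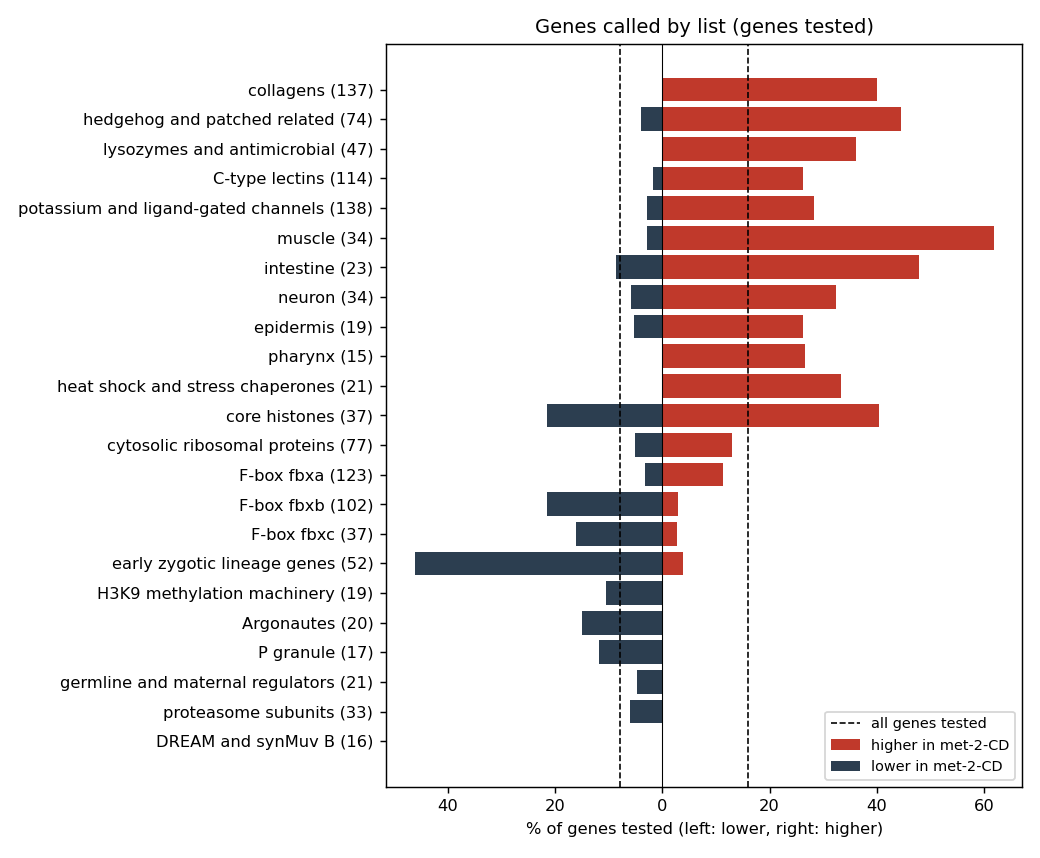
Share of the tested genes of each list called higher (red, to the right) or lower (dark, to the left) in met-2-CD, with the number tested in parentheses and dashed lines at 15.9% and 7.84%, the shares over all genes tested. Muscle has the largest higher share of the lists shown, 61.8%, and the early zygotic list the largest lower share, 46.2%.

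Of 21 heat shock and stress chaperone genes 7 (33.3%, against 15.9% of all genes) were higher and 0 lower at 20 °C. Without the 224 genes 4 of 18 were higher. hsp-90 had 1910, 2180 and 2120 CPM in the met-2-CD libraries and 1050, 1020 and 1020 CPM in WT (log2FC 1.01 ± 0.08, edgeR FDR 3.44e-08), just past the fold threshold. hsp-12.1 and hsp-12.2, small heat shock protein genes, had 13.6, 21.1 and 30.8 and 9.55, 16.9 and 29.7 CPM in met-2-CD libraries a, b and c, and their highest WT libraries had 4.57 and 1.58 CPM. The hsp-70 family members F44E5.5 and F44E5.4 were at 17.8 to 27.7 CPM in the met-2-CD libraries and at most 0.151 CPM in WT. They are near-identical copies, so their counts rest on reads unique to each, and both belong to the 224 genes that set WT apart. The gene hsp-70 itself had 3.56, 3.29 and 4.31 CPM in the met-2-CD libraries and 7.11, 6.3 and 4.41 CPM in WT and was not called (log2FC −0.68, edgeR FDR 0.0161).

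The lower genes included many that act in the first lineages of the embryo. Of 52 early zygotic lineage genes tested, 24 (46.2%) were lower and 2 (3.85%) higher, against 7.84% and 15.9% of all genes. Their median log2FC was −0.83. ref-1, a bHLH gene that responds to Notch signals, had 24.3, 18.8 and 16.5 CPM in the met-2-CD libraries and 84, 66.4 and 87.7 CPM in WT (log2FC −2.0 ± 0.13, edgeR FDR 4.49e-09). end-1 had 12.3, 13.6 and 10.8 CPM against 36.8, 34.2 and 36.4 CPM (log2FC −1.55 ± 0.11, edgeR FDR 7.43e-09). med-1 and med-2, which encode GATA factors of the mesendoderm, changed by −2.34 and −2.1, and the T-box genes tbx-37 and tbx-38 by −1.02 and −1.41. None of these 6 genes overlapped between the groups. The count was 24 without met-2-CD library a and 23 without library c, and none of these lower genes belonged to the 224 genes. Most maternal transcripts stayed below the fold threshold. Of 21 germline and maternal regulators only nos-2 was lower (4.76%, under the 7.84% of all genes). Of 17 P granule genes cgh-1 and car-1 were lower (11.8%, above that share) and 0 higher. The list as a whole did not fall, since the median log2FC of the 17 genes was 0.31, against 0.04 over all genes.

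Among the 19 genes of H3K9 methylation, its readers and the nuclear small RNA pathway that acts with it, 2 were lower (10.5%, against 7.84% of all genes) and 0 higher, with a median log2FC of −0.24. hpl-1, a heterochromatin protein 1 homologue that binds the mark, had 15.4, 15.1 and 14.9 CPM in the met-2-CD libraries and 41.8, 45.1 and 44.6 CPM in WT (log2FC −1.54 ± 0.10, edgeR FDR 3.73e-09). cec-3, a chromodomain protein, had 128 ± 10.4 CPM against 282 ± 23.6 CPM (log2FC −1.14 ± 0.07, edgeR FDR 2.55e-09). Neither gene overlapped between the groups, and both were even among the mutant libraries. Others passed the FDR but stayed under the fold threshold. arle-14 had 39.3, 36.5 and 34.7 CPM in the met-2-CD libraries and 66.5, 63.4 and 75.8 CPM in WT (log2FC −0.90, edgeR FDR 1.9e-07). The log2FC was −0.84 for hpl-2, −0.73 for set-25, −0.73 for cec-4, which tethers the mark to the nuclear rim, and −0.87 for nrde-4. In the opposite direction lin-13, a zinc finger gene, had a log2FC of 0.94 ± 0.08, from between 685 and 771 CPM in WT to between 1300 and 1480 CPM. The remaining genes of the list besides met-2, namely lin-61, lin-65, cec-6, cec-7, cec-8, set-32, hrde-1, nrde-1, nrde-2 and nrde-3, had log2FC between −0.46 and 0.28. Of 20 Argonaute genes 3 were lower (15%, against 7.84% of all genes) and 0 higher: sago-2, wago-5 and ppw-1. sago-2 belongs to the 224 genes, and without them 2 of 19 were lower. Of 34 other histone methyltransferase and demethylase genes mes-6 and set-9 were lower (5.88%, under the 7.84% of all genes) and none higher. mes-6, a subunit of the complex that methylates lysine 27 of H3, had 271, 243 and 224 CPM in the met-2-CD libraries and 581, 506 and 617 CPM in WT (log2FC −1.21 ± 0.08, edgeR FDR 3.36e-09).

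The 8 loci that the study assayed singly were chosen by it on these strains, so their direction is not independent evidence. Of them 4 were higher and 1 lower than in WT. glf-1 had 20.6, 42.1 and 87.8 CPM in met-2-CD libraries a, b and c and 3.86, 4.77 and 0.715 CPM in WT (log2FC 3.99 ± 0.49, edgeR FDR 3.89e-06), and nep-17 had 15, 21.6 and 52.6 CPM and 2.54, 2.89 and 0.715 CPM (log2FC 3.84 ± 0.44, edgeR FDR 1.92e-06). Both were uneven, without overlap between the groups. grl-16 and bcl-11 were also called higher (log2FC 1.44 and 1.19), and neither was without met-2-CD library c (0.95 and 0.68). bcl-11 also lost the call without WT library a or b (1.15 and 1.05). C55C3.3 was lower, with 0.193, 0.353 and 0.249 CPM in the met-2-CD libraries and 0.583, 0.764 and 0.863 CPM in WT (log2FC −1.42 ± 0.24, edgeR FDR 9.42e-05). It had a mean of 12.8 CPM in met-2Δ. col-166, F10D11.6 and the control gene unc-119 were not called, with log2FC of 1.36 (edgeR FDR 0.0766), 0.87 (edgeR FDR 0.0232) and −0.83 (edgeR FDR 1.84e-07). F10D11.6 was called without met-2-CD library a (edgeR FDR 0.00871).

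Of 102 fbxb genes, which encode F-box proteins, 22 (21.6%) were lower and 3 (2.94%) higher, with a median of −0.54. Of 37 fbxc genes 6 (16.2%) were lower and 1 (2.7%) higher. fbxb-57 had 17.9, 13.9 and 13.9 CPM in the met-2-CD libraries and 54.5, 47 and 56.5 CPM in WT (log2FC −1.79 ± 0.12, edgeR FDR 4.86e-09). Of the fbxa genes tested 14 were higher and 4 lower (11.4% and 3.25%), with 8 higher without met-2-CD library c, and of 77 cytosolic ribosomal protein genes 10 were higher and 4 lower (13% and 5.19%). The fbxa and ribosomal protein genes had smaller shares in each direction than the 15.9% and 7.84% of all genes. rpl-23 had 325, 405 and 391 CPM in the met-2-CD libraries and 103 ± 7.71 CPM in WT (log2FC 1.85 ± 0.08, edgeR FDR 9.5e-11), while rpl-37 had 11.7, 14.1 and 16.2 CPM against 63.4, 55.8 and 54.3 CPM (log2FC −2.05 ± 0.12, edgeR FDR 1.4e-09). Of 33 proteasome genes pbs-3 and rpn-12 were lower (6.06%) and none higher, and of 16 DREAM and synMuv B genes none passed in either direction.

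Core histone genes gave some of the widest folds. Of 37 tested, out of 70 in the table, 15 (40.5%) were higher and 8 (21.6%) lower, against 15.9% and 7.84% of all genes. Without the 224 genes only 3 of 25 were higher, while 8 were still lower. Over all genes 2300 of 15247 were then higher and 1155 lower. his-64 had 1660, 1620 and 1470 CPM in the met-2-CD libraries and 2.82, 0.955 and 1.21 CPM in WT (log2FC 9.84 ± 0.26, edgeR FDR 3.3e-13). his-3 had 1070, 1240 and 1120 CPM against 4880, 6330 and 4860 CPM, a log2FC of −2.23. The list as a whole summed to between 23600 and 26000 CPM in the met-2-CD libraries and between 32100 and 33600 CPM in WT. Histone genes are near-identical copies, and reads that align equally well to several copies were not counted, so each member's count rests on reads unique to it and is uncertain as a level of the gene.

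The same limit holds for gene pairs in which 1 member was at 0 or far lower in a group. The kinase gene cst-2 had 0 counts in all WT libraries and 3.62, 2.54 and 3.09 CPM in met-2-CD, at least 45.8-fold higher against the floor of 3 counts per library. Summed with its copy cst-1, the pair had 29.3 ± 3.17 CPM in the met-2-CD libraries and 13.6 ± 2.65 CPM in WT (SD, n = 3). The catalase gene ctl-1 also had 0 counts in WT, and with ctl-2 the pair had 87 ± 4.17 and 33.4 ± 4.01 CPM. In the other direction, cin-4 had 1.33, 1.5 and 1.28 CPM in the met-2-CD libraries and 98.7, 111 and 128 CPM in WT, while the sum with top-2, the topoisomerase II gene, was 2160 ± 211 and 3230 ± 467 CPM. Other genes among the 10 lowest were W09H1.4, K08E5.1, C01G5.3, Y108F1.5 and plp-2. C01G5.3 and Y108F1.5 had at most 3 counts in each met-2-CD library and were at least 75.9-fold and 72.5-fold lower. For each of these genes met-2Δ also differed from WT in the direction of met-2-CD.

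Transcripts of the mitochondrial genome were lower in met-2-CD than in WT, and met-2Δ was as low. This group was chosen after its values were seen. Of 12 genes tested 10 (83.3%, against 7.84% of all genes) were lower and 0 higher, with a median of −1.49. COX3, a subunit of cytochrome c oxidase, had 1110, 669 and 975 CPM in the met-2-CD libraries and 4250, 4740 and 4330 CPM in WT, a log2FC of −2.27. The 12 genes summed to between 19000 and 28800 CPM in the met-2-CD libraries and between 55800 and 57500 CPM in WT. The part of this difference in the other results was not tested. Of 321 pseudogenes tested 58 (18.1%) were lower, against 7.84% of all genes, and 41 without the genes that set WT apart.

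Along the genome, the share of higher genes was 21.7% on X, 17.7% on V, 15.9% on IV, 15.2% on II, 12.5% on I and 12.4% on III. The share of lower genes ran from 6.22% on V to 8.94% on II. Within chromosomes higher genes were counted in the arms, taken as the outer parts (25% at each end, 950 of 6471 genes, 14.7%) and in the central parts (1455 of 8673, 16.8%). Runs of 5 or more neighbouring tested genes called in 1 direction numbered 13 for higher and 5 for lower genes. The lower runs were not scattered. The longest, of 9 genes, was mitochondrial, and runs of 8, 6 and 5 genes lay close together on X, between 34798 and 274012. Their members elk-2 and Y108F1.5 are among the genes that set WT apart. The other lower run, of 5 genes, was on II. On chromosome I, col-47, Y18H1A.9, T06A4.3, T06A4.1, zfh-2, ZC123.1 and cdk-14 were all higher, with log2FC from 1.1 to 5.11, between 745888 and 846763 (WBcel235). The runs were picked with their values in view.

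Against met-2Δ, fewer genes were called than against WT. The met-2Δ libraries were smaller than those of WT, at 20.05 to 26.26 M counts, and WT stands apart from all other libraries of the series. The numbers of calls are therefore not a measure of how near met-2-CD is to each strain. Against met-2Δ 138 genes (0.892%) were higher and 767 (4.96%) lower in met-2-CD. This comparison shares the met-2-CD libraries with the one against WT, so values are given side by side. C38D9.2 had 2.07, 2.41 and 2.07 CPM in met-2-CD, a mean of 263 CPM in met-2Δ and 3.07, 3.08 and 3.6 CPM in WT. Its log2FC was −6.90 against met-2Δ (edgeR FDR 3.27e-17) and −0.56 against WT (edgeR FDR 4.91e-05), under the fold threshold. The collagen gene col-77 had 0.138, 0.395 and 0.601 CPM in met-2-CD, at most 0.0986 CPM in WT and 15.4 CPM in met-2Δ. ram-2 had 0.525, 0.769 and 2.4 CPM, at most 0.113 CPM in WT and 31.7 CPM in met-2Δ. Both were thus called higher than WT (3.29 and 4.05) and lower than met-2Δ (−5.27 and −4.63). Collagens as a list had 42 genes lower and 0 higher than in met-2Δ. fbxc-40 had 90.8, 86.5 and 84.5 CPM in the met-2-CD libraries, 89.1, 75.1 and 68.9 CPM in WT and 2.35 CPM in met-2Δ, and was not called against WT (log2FC 0.17, edgeR FDR 0.162). Of the 751 even genes 42 were lower than in met-2Δ and 11 higher, and of the 820 uneven genes 91 and 4. Over all genes tested 4.96% were lower and 0.892% higher. The classes were cut on the met-2-CD values that this comparison also uses, so these counts are a description.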

How the data were processed

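RNA was sequenced from early embryos, and the table deposited by the authors gives read counts by gene, whole numbers that were not scaled. The authors trimmed adapters, aligned reads to ce10 (per the labels) with hisat2 through QuasR and counted unique alignments over WormBase exons on the strand of the gene, so reads shared by near-identical copies are not counted. The sources differ on the RNA and library kits. Groups came from the labels. Column names carry a letter and not the replicate number of the labels. Members and lists were chosen with earlier results of these data known.

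Symbols were matched by WormBase identifier (94.1% of genes), and positions are from WBcel235 by identifier, with none converted. Counts were scaled by TMM, filtered with filterByExpr (15471 of 20392 genes kept) and fitted with the quasi-likelihood test of edgeR 4.0.16 (R 4.3.3) in 1 model of all 5 groups, with Benjamini-Hochberg FDR over all genes. The model was tested on simulated data. P-values measure the spread between libraries, which the model shares over all 5 groups, the heated ones included. The biological coefficient of variation of this model was 11.8%, below the 19.2% among met-2-CD replicates and the 14% among WT. A model of only these 2 groups called 1746 higher and 1133 lower genes. Means are given with the SD over 3 libraries. A floor of 3 counts was used for genes at or near 0, equal to between 0.056 and 0.083 CPM in the 6 libraries, and covers counting error only. No replicate pair agreed within sampling noise (chi-square per degree of freedom from 24.7 to 53.6 within met-2-CD and WT).

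Genes were named from those of the H3K9 list and the loci of the study, the 10 highest and 10 lowest called genes with at least 5 CPM and no overlap (outside the 28 genes that set WT apart), the 5 highest and 5 lowest against met-2Δ, the 3 called members of each list with the lowest FDR, and the 5 most variable genes in met-2-CD, and not all of them are printed. Further list members, runs of neighbours, copies of named genes and mitochondrial genes were picked after their values were seen. Alternatives were library totals, DESeq2 1.42.0 (size factors and Wald test), the likelihood ratio test, limma 3.58.1 voom weights, other filters and thresholds, only the groups compared, a larger prior count, thinning, a replicate block, and leaving out libraries or genes.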

Additional observations from a re-analysis of the deposited data

How the results depend on the processing

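The counts against WT stayed within 1.5 times of 2466 and 1213 under every alternative except a fold threshold of 4, which left 1150 higher and 204 lower. Leaving out single libraries gave 1855 to 2655 higher (lowest without met-2-CD library c, highest without library a) and 1203 to 1394 lower genes. The counts against met-2Δ depended more on the processing. Where the main fit called 138 higher genes, library totals alone called 86, an FDR below 0.05 called 212 and a fold above 4 called 22. Leaving out single libraries gave 87 to 386 higher genes (lowest without met-2-CD library c, highest without library a). Where the main fit called 767 lower genes, limma voom with library weights called 1325 and a model of only the groups compared 402. Thinning to the smallest library gave 456, a fold above 4 gave 357, and leaving out single libraries gave 501 to 1041. The causes of these shifts were not tested. A replicate block by column letter gave 2400 higher and 1200 lower genes against WT and 124 and 716 against met-2Δ. The letters did not pair the samples: deviations of met-2-CD and WT libraries with the same letter had correlations of −0.34, −0.076 and −0.58.

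Library totals alone shifted the median over all genes upwards by 0.13 (log2), took the calls against WT from 67% to 75% higher, and turned met-2 from −0.08 to 0.04 and lin-65 from −0.04 to 0.09, none of these called. lin-65 was also at 0.05 after thinning and between −0.12 and 0.02 without single libraries. Of 101 tested genes named above, 76 were called, and 15 of these lost the call under at least 1 alternative, among them hsp-90, nos-2, ppw-1, set-9 and tbx-37. The voom weights were 0.381, 2.38 and 0.357 for met-2-CD libraries a, b and c. With 3 libraries per group, a wide spread in met-2-CD and no label for embryo age, rises of uneven genes are known less precisely than those of even genes.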
